A study of Mus musculus with 35 samples.

Results

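The type I interferon response genes are a set of 44 mouse genes whose transcripts cells make in quantity when they sense interferon. They were chosen by gene symbol from a fixed list, with no measured value in the rule, and all 44 were found among the 38924 gene identifiers of the count table. By role, 3 encode signalling or transcription factors, 5 are sensors of foreign nucleic acid, and 12 bind RNA or act on RNA and nucleotides. A further 8 belong to the ISG15, ubiquitin and ADP-ribose system, 7 are interferon-induced GTPases, and 9 are membrane or other effectors.

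Interferon alpha and beta bind the receptor pair IFNAR1 and IFNAR2, whose kinases JAK1 and TYK2 phosphorylate STAT2 among other factors. STAT2 and IRF9 are parts of the complex ISGF3, which binds interferon-stimulated response elements in promoters, and many of the same genes also respond to interferon gamma through gamma-activated sites. In CD8 T cells, type I interferon is known both as an antiviral signal and as a signal that shapes expansion and memory.

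Total RNA from CD8 T cells of C57BL/6 mice was sequenced after a sort for CD3e+CD8+CD44hiCD62Llo, the surface markers of effector memory cells. All groups share this strain and this gate, and the labels give age only as aged or young. Cells were stimulated with PMA and ionomycin for 2 h, or left unstimulated; the pair activates T cells from inside, through protein kinase C and calcium, bypassing the antigen receptor. The 35 libraries formed 7 groups. Stimulated brain cells came from aged females (n = 5) and aged males (n = 4). Unstimulated brain cells came from aged females (n = 5), aged males (n = 6) and young males (n = 5). Spleen cells came from aged males, stimulated (n = 5) and unstimulated (n = 5). Whether replicates were separate animals is not in the labels, so a p-value here reflects how far these samples spread, which may be technical.

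Several features of the libraries bear on every value below. Library totals ran from 1.16 to 24.97 M counts, and levels are given as CPM, counts scaled to a common library total with TMM factors over all 35 libraries. Mitochondrial genes took 38.5% to 69.7% of the counts in stimulated brain, 8.28% to 12.8% in unstimulated brain and 10.8% to 20.8% in spleen. The sex-linked genes matched the labels in most libraries. Aged male brain replicate 8 had 28.7 CPM of Xist, the X inactivation RNA, against 0 to 10.3 CPM in the other unstimulated aged male brain libraries and 85.3 to 141 CPM in unstimulated female brain. Stimulated male brain replicate 19 had 21.8 CPM of it, and the other stimulated male libraries 0. Of the 4 stimulated male brain libraries, 1 held any count of the Y-linked gene Ddx3y. Stimulated female brain replicate 27 had 0 CPM of both Xist and Ddx3y. Young male brain replicates 3 and 4 had 1.64 and 5.68 CPM of Ddx3y, against 72.2 to 179 CPM in the other young male libraries. Sample titles are written with hyphens in all brain libraries except stimulated female replicates 26 and 27, and without hyphens in all spleen libraries, so tissue and any difference in preparation behind the title format cannot be told apart. Summed CPM of 9 CD8 T cell markers was 4878 to 9168 in aged male brain and 3117 to 3565 in unstimulated spleen, with no marker at 0 in either group.

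Promoter windows were searched for known elements of interferon response genes. The members were listed as such genes, so a share above that of all symbols is no independent result. RefSeq windows on GRCm38.p6, from 250 bases before to 50 bases after the transcription start, were at hand for 36 of the 44 members. The core of the interferon-stimulated response element, searched as TTTC, any 2 bases and TTTC on either strand, occurred in 18 of these 36 and in 1079 of 27025 symbols with a window (3.99%). The gamma-activated site, TTCNNNGAA, which reads as the same pattern on both strands, occurred in 10 of the 36 (27.8%) and in 2582 of all symbols (9.55%). A match of either pattern can overlap a match of the other or of its own kind. Among members with a window, the core occurred in 4 of 5 called higher in brain than spleen below. It occurred in 4 of 9 called lower and 2 of 2 called higher after stimulation in spleen. The called members Herc6, Trim25, Adar, Lgals3bp, Dtx3l and Ifi47 had a window without it. The following stretches are examples picked from called members that hold a match. Capitals mark the response element core, which reads GAAA, 2 bases and GAAA where it lies on the other strand.
Ifit1, chr19:34640760-34640838, plus strand: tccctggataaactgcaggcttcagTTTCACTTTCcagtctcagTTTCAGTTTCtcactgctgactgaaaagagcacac
Ifit3, chr19:34583348-34583441, plus strand: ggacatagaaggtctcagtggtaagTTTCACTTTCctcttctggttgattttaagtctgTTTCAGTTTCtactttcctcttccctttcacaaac
Oas3, chr5:120777700-120777759, minus strand: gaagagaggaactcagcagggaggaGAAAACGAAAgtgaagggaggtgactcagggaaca
Igtp, chr11:58199497-58199556, plus strand: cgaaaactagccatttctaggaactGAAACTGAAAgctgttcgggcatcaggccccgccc
Isg15, chr4:156200850-156200921, minus strand: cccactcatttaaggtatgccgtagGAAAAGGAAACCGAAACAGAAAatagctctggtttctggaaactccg
Irgm1, chr11:48871410-48871475, minus strand: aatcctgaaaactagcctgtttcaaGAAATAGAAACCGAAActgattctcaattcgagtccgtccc
Ifit1 and Ifit3 each carry 2 separate matches, Isg15 carries 3 overlapping matches and Irgm1 carries 2 overlapping ones. The first match starts 104 bases before the transcription start in Ifit1, 156 bases before it in Ifit3, 75 in Oas3, 34 in Igtp, 78 in Isg15 and 30 in Irgm1. A match is a description of the letters and not a measured binding site.

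Several members lie side by side in the genome. On chromosome 19 the starts of Ifit2 and Ifit3 are 32.8 kb apart and those of Ifit3 and Ifit1 57.3 kb apart, all on the same strand. Gbp2, Gbp3 and Gbp7 share a stretch of chromosome 3, and Oas1a, Oas2 and Oas3 share one of chromosome 5. Rsad2 and Cmpk2 lie on opposite strands of chromosome 12, with starts 12.8 kb apart, and run away from each other. Parp9 and Dtx3l on chromosome 16 overlap by 681 bases on opposite strands. Reads within that stretch cannot be told apart without strand, which is not given in the sources used here. Ifit3, Oas1a and Trim30a have near-identical relatives, among them Ifit3b, and their single values are uncertain where the authors' counting could split reads between copies.

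**Figure D1:**
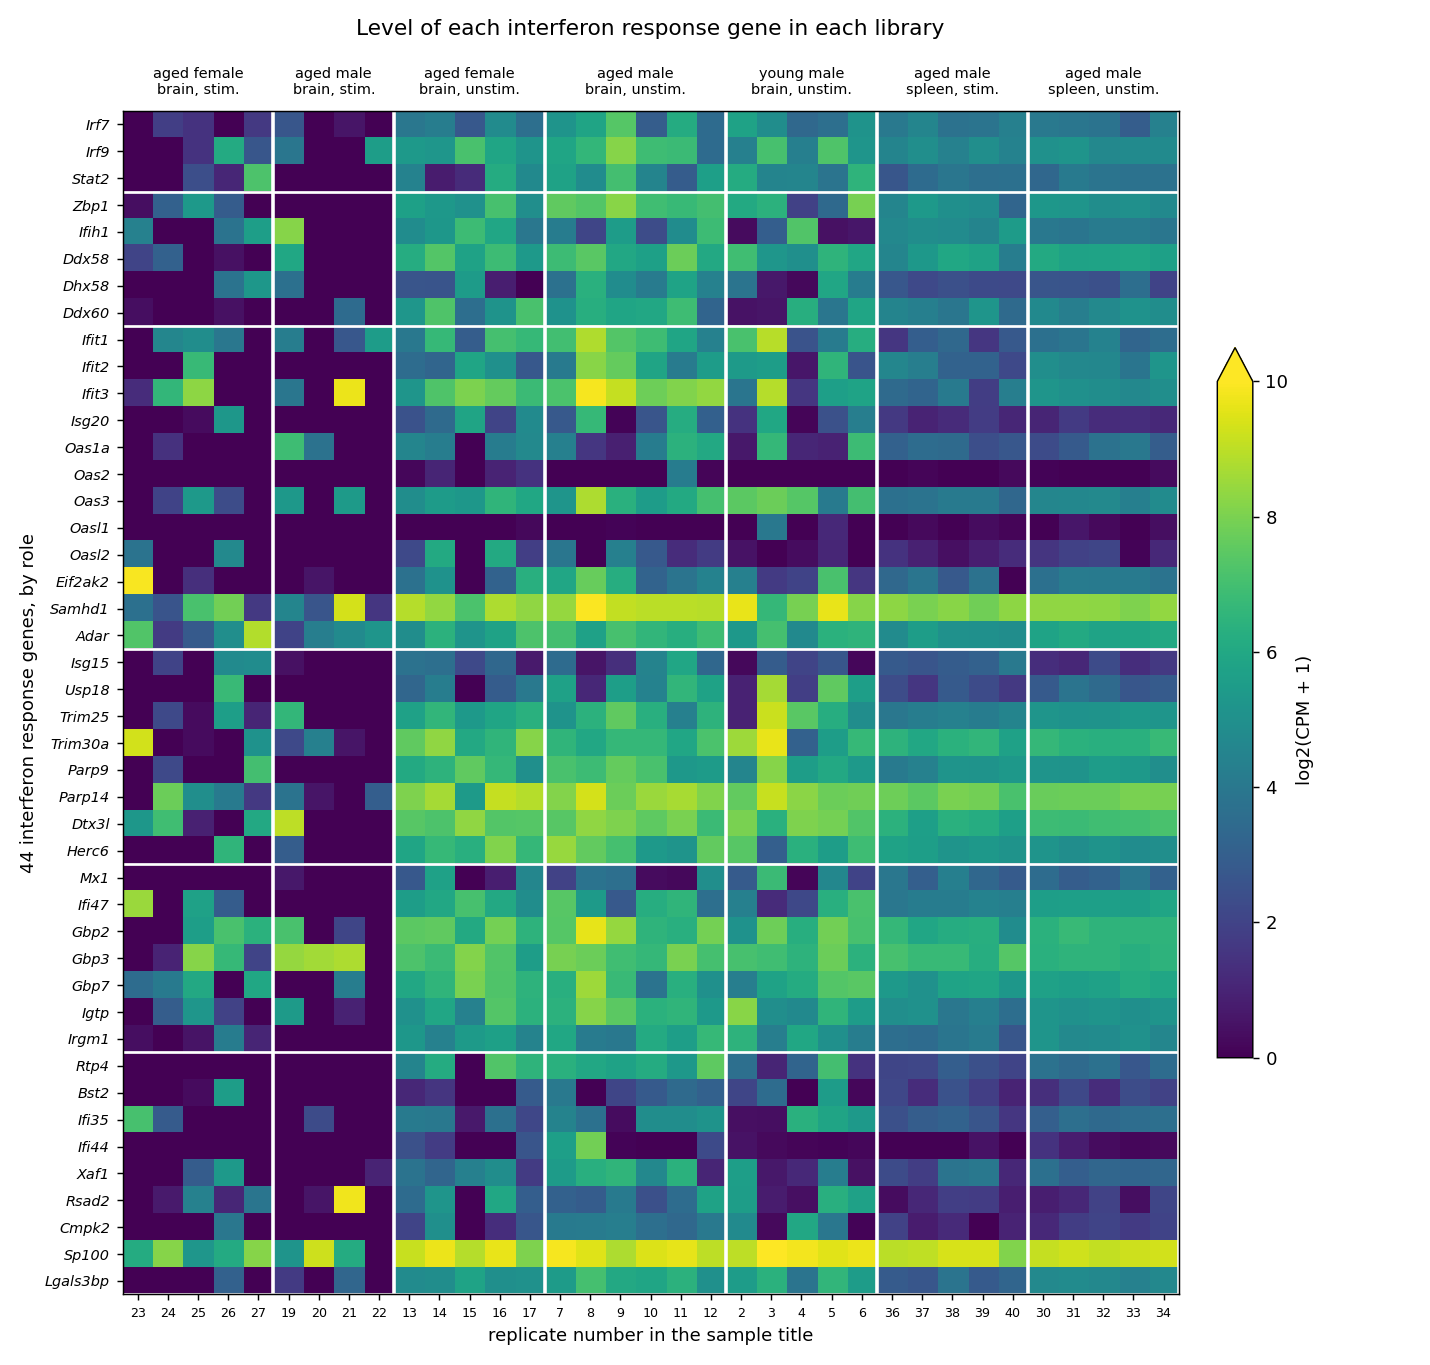
Each row is 1 of the 44 genes, grouped by role, and each column is 1 of the 35 libraries, grouped by tissue, sex, age and stimulation; colour gives log2(CPM + 1). The unstimulated brain and spleen columns are filled for nearly all genes, while the stimulated brain columns hold many genes at 0.

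Before any comparison, the level of the whole set was read in each library as the summed CPM of the 44 genes. The lowest, median and highest sums were 2905, 3124 and 4704 CPM in aged female brain, 3753, 4558 and 8541 CPM in aged male brain, 3034, 3900 and 6605 CPM in young male brain, and 2181, 2218 and 2354 CPM in unstimulated spleen. On this TMM-scaled measure the sums of the unstimulated brain groups lay above those of unstimulated spleen in every library, and overlapped among themselves. As a share of non-mitochondrial counts, without TMM factors, only aged male brain lay above unstimulated spleen in every library. Its lowest share was 0.449%, against a highest of 0.442% in spleen. Aged female brain, with a lowest share of 0.430% and a median of 0.495%, overlapped spleen. Young male brain also overlapped it, with a median of 0.419%, against 0.423% in spleen. Stimulated spleen held 1437, 1904 and 2122 CPM, below unstimulated spleen in every library. Stimulated brain spread widely, with 813, 1272 and 2405 CPM in females and 137, 1423 and 2990 CPM in males.

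Detection separated the stimulated brain libraries from the rest. Of the 44 genes, 16 to 29 had at least 1 count in stimulated female brain libraries and 6 to 23 in stimulated male brain libraries. The range was 32 to 43 in unstimulated aged female brain, 40 to 43 in aged male brain, 41 to 43 in young male brain and stimulated spleen, and 42 to 44 in unstimulated spleen.

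**Figure D2:**
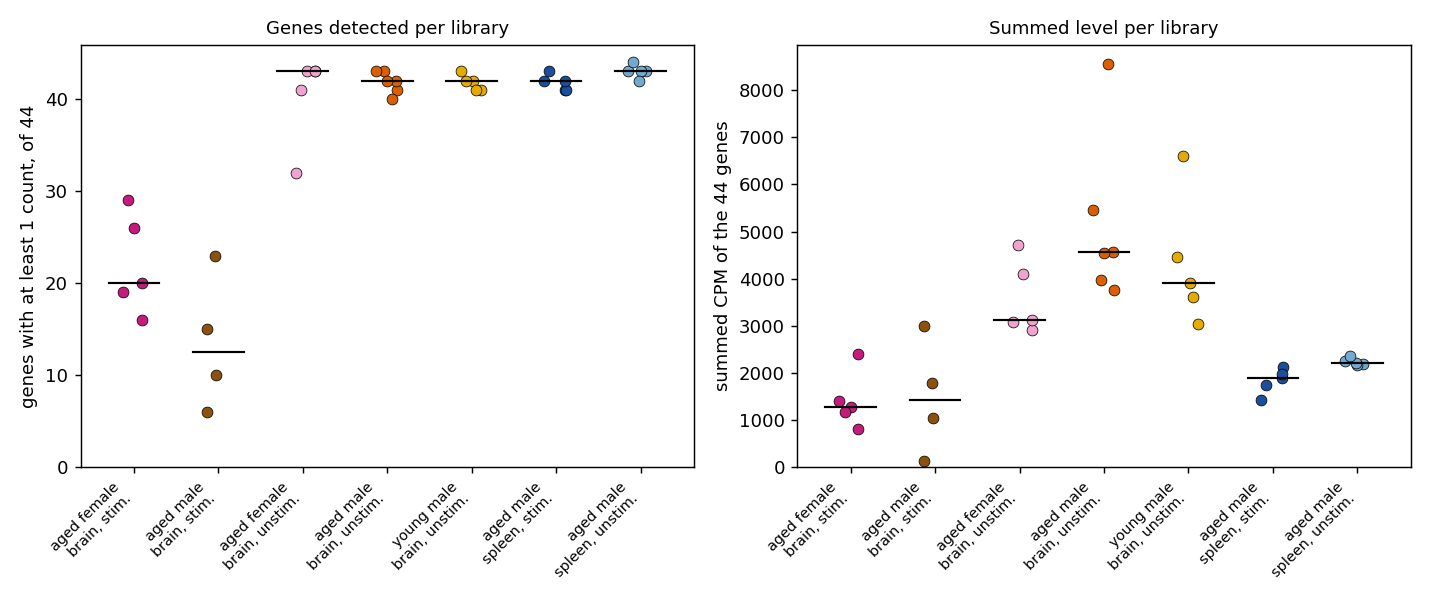
The left panel gives the number of the 44 genes with at least 1 count and the right panel their summed CPM, with a point per library and a line at each group's median. Stimulated brain libraries detect 6 to 29 of the genes, and unstimulated brain libraries reach sums of 2905 to 8541 CPM, against 2181 to 2354 CPM in unstimulated spleen.

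Replicates varied much more in brain than in spleen. The median coefficient of variation over the members was 71.1% in aged female brain, 73.5% in aged male brain, 116% in young male brain and 16.7% in unstimulated spleen. Over all genes tested, it was 90.8% in aged female brain, 116% in aged male brain, 106% in young male brain and 24.6% in unstimulated spleen. In stimulated cells the members' median was 169% in female brain, 196% in male brain and 38.7% in spleen. Aged male brain replicate 8 was the highest of its group for 15 of 42 members (35.7%), against 21.1% of all genes.

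Levels between genes can be compared per length in TPM, the authors' length-scaled share of transcripts, averaged over the 35 libraries. Sp100, which encodes a component of nuclear bodies, led with 359 TPM, followed by Samhd1, a nucleotide-degrading enzyme that restricts viruses, with 289 TPM. In the other roles the 2 leading genes were Gbp3 and Gbp2 (48.4 and 45.5 TPM), Dtx3l and Trim25 (33.2 and 31.9 TPM), Zbp1 and Ddx58 (32.3 and 29.6 TPM), and Irf7 and Irf9 (27.02 and 26.3 TPM). Ifit3 averaged 65.6 TPM and Xaf1 33.05 TPM. At the low end, Oas2 and Oasl1 averaged 0.165 and 0.459 TPM and passed the low-count filter in no comparison.

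Aged male brain cells were set against aged male spleen cells, both unstimulated, to see how the set differs between the brain and a lymphoid organ. Members were higher in brain: 7 of the 42 tested rose (16.7%) and 0 fell, where 3.35% of all 11040 genes tested were higher and 4.02% lower. The fitted difference was above 0 for 40 of the 42, with a median log2 fold change of 1.68, against 0.31 over all genes tested. With limma voom these medians were 0.89 and -1.02, and over all genes 425 were then called higher and 1190 lower, against 370 and 444 with edgeR. An unadjusted p under 0.05 was reached by 26 members and by 16.4% of all genes. Every library of brain was above every library of spleen for 11 members and below it for 0, where the background is 4.48% of genes above and 6.5% below. By role, 3 of 10 RNA-binding effectors, 1 of 8 in the ISG15 system, 1 of 9 membrane effectors, 1 of 5 sensors and 1 of 7 GTPases were higher. All p-values given here for single genes are from edgeR's quasi-likelihood test with Benjamini-Hochberg adjustment over all genes tested.

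Ifit3 encodes a partner of IFIT1, which binds viral RNA lacking the host cap marks (ENSMUSG00000074896, chr19:34583531-34588731, protein-coding). It had 142, 301 and 924 CPM at the lowest, median and highest of the 6 brain libraries, against 35.9, 31.8, 28.6, 24.4 and 29.7 CPM in the 5 spleen libraries. The groups did not overlap, and the log2 fold change was 3.56 ± 0.44 (SE; adjusted p = 0.00019). Ifit1 itself (chr19:34640871-34650009) reached 20.1, 121 and 447 CPM in brain, against 12.01, 13.9, 20.5, 8.72 and 10.9 CPM in spleen. Its lowest brain library fell within the spleen range, and its log2 fold change was 3.33 ± 0.66 (adjusted p = 0.0049), or 2.67 without replicate 8 (adjusted p = 0.0056). Oas3, a synthase of the oligoadenylates that switch on RNase L (chr5:120753098-120777661), had 36.4, 73.7 and 431 CPM in brain, against 23.3, 23.5, 24.9, 18.7 and 27.2 CPM in spleen. Brain was higher without overlap, by 2.27 ± 0.61 on the log2 scale (adjusted p = 0.032), and by 1.43 when replicate 8 was left out. Ifit2, the third gene of the Ifit cluster, was at 16.3, 50.97 and 294 CPM in brain, against 29.5, 24.6, 23.95, 13.9 and 36.3 CPM in spleen. The Ifit2 groups overlapped and the difference did not pass the test (1.80 ± 0.72, adjusted p = 0.20).

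Zbp1, a sensor of Z-form nucleic acid that can start necroptosis (ENSMUSG00000027514, chr2:173206612-173218923), stood at 106, 143 and 295 CPM in brain, against 38.5, 35.95, 29.2, 31.1 and 25.9 CPM in spleen. No brain library came near the spleen range, and the log2 fold change was 2.17 ± 0.35 (adjusted p = 0.0019). Rtp4, a chaperone of G protein-coupled receptors with antiviral activity (chr16:23520291-23614222), had 38.8, 66.7 and 182 CPM in brain, against 12.7, 10.1, 12.3, 5.62 and 10.7 CPM in spleen. It was higher in each brain library, by 2.80 ± 0.55 (adjusted p = 0.0049). Herc6, which in mouse is the main ligase that attaches ISG15 to proteins (chr6:57581000-57664632), ranged over 35.1, 161 and 349.6 CPM in brain, against 35.3, 28.7, 34.1, 28.4 and 29.9 CPM in spleen. Its lowest brain library touched the spleen range, and its log2 fold change was 2.12 ± 0.54 (adjusted p = 0.023). Igtp, an immunity-related GTPase (chr11:58199556-58207591), had 41.7, 89.1 and 292 CPM in brain, against 36.6, 32.6, 34.9, 30.998 and 35.5 CPM in spleen, with no overlap and a log2 fold change of 1.70 ± 0.47 (adjusted p = 0.035).

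**Figure D3:**
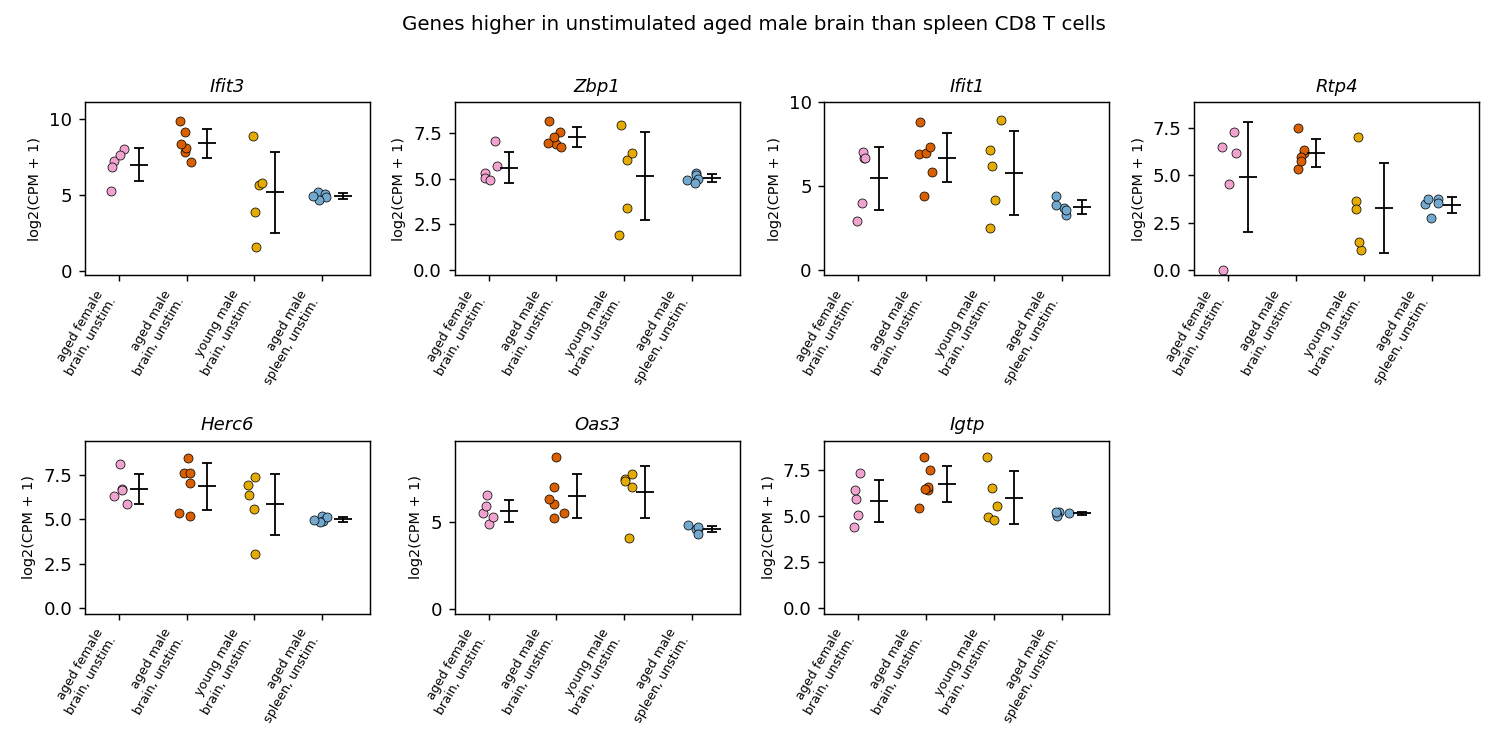
Points are single libraries of aged female, aged male and young male brain and aged male spleen, all unstimulated, for the 7 genes that were higher in aged male brain than in spleen; the axis is log2(CPM + 1) and bars are mean ± SD. The 6 aged male brain points of Ifit3 lie between 142 and 924 CPM, above all 5 spleen points, and the young male points spread from 1.98 to 469 CPM.

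The 3 transcription factors had fitted differences above 0 without passing the test. Irf7, which amplifies interferon transcription, had 6.66, 46.0 and 162 CPM in brain, against 15.3, 14.3, 12.97, 6.63 and 20.2 CPM in spleen (1.82 ± 0.77, adjusted p = 0.23). Irf9 and Stat2, which bind each other in ISGF3, had log2 fold changes of 1.77 ± 0.61 (adjusted p = 0.11) and 1.69 ± 0.71 (adjusted p = 0.23). The largest fitted differences were those of Ifi44 and Isg20, at 6.05 ± 2.204 (adjusted p = 0.14) and 4.26 ± 1.35 (adjusted p = 0.078). Ifi44 owed its mean to few libraries, with 0, 1.90 and 231 CPM at the lowest, median and highest of the brain libraries. The abundant Sp100 (0.03 ± 0.20) and Trim30a (-0.12 ± 0.33) had differences close to 0, and Samhd1 had 343, 500.2 and 977 CPM in brain, against 322, 325, 311, 269 and 329 CPM in spleen, without overlap but also without a call (0.64 ± 0.23, adjusted p = 0.13). The lowest fitted value was that of the antiviral GTPase gene Mx1 (-0.17 ± 1.14).

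With DESeq2's own test 18 members were higher in brain, where 610 of 11040 genes were. With edgeR fitted to all 35 libraries together 0 members were, with 9 at an unadjusted p under 0.05, where 77 of 12956 genes were higher. Leaving out any single spleen library left 4 members called, since Herc6, Oas3 and Igtp each lost the call. The genes called higher then numbered 251 to 255. In bulk RNA, fewer cells of a type and less RNA per cell cannot be told apart. Summed CPM of 12 microglia and macrophage markers was 9.33 to 465 in brain and 99.5 to 144 in spleen. Trem2, Aif1 and Sall1 were at 0 in all 6 brain libraries, and Tmem119, Trem2 and Sall1 in all unstimulated spleen libraries. Of the 9 markers tested 0 were called higher in brain. Markers of plasmacytoid dendritic cells, a strong source of interferon alpha, summed to 7.65 to 121 CPM in brain and 25.3 to 38.4 CPM in spleen. Choroid plexus markers summed to 1.85 to 619 CPM in brain and 0 to 0.116 CPM in spleen, and the 1 of them tested was called higher. Of the 9 CD8 T cell markers 4 were called higher in brain, and 1 marker each of B cells, CD4 T cells, red blood cells, and microglia and macrophages was called lower. The part of these cells in the result was not tested.

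**Figure D4:**
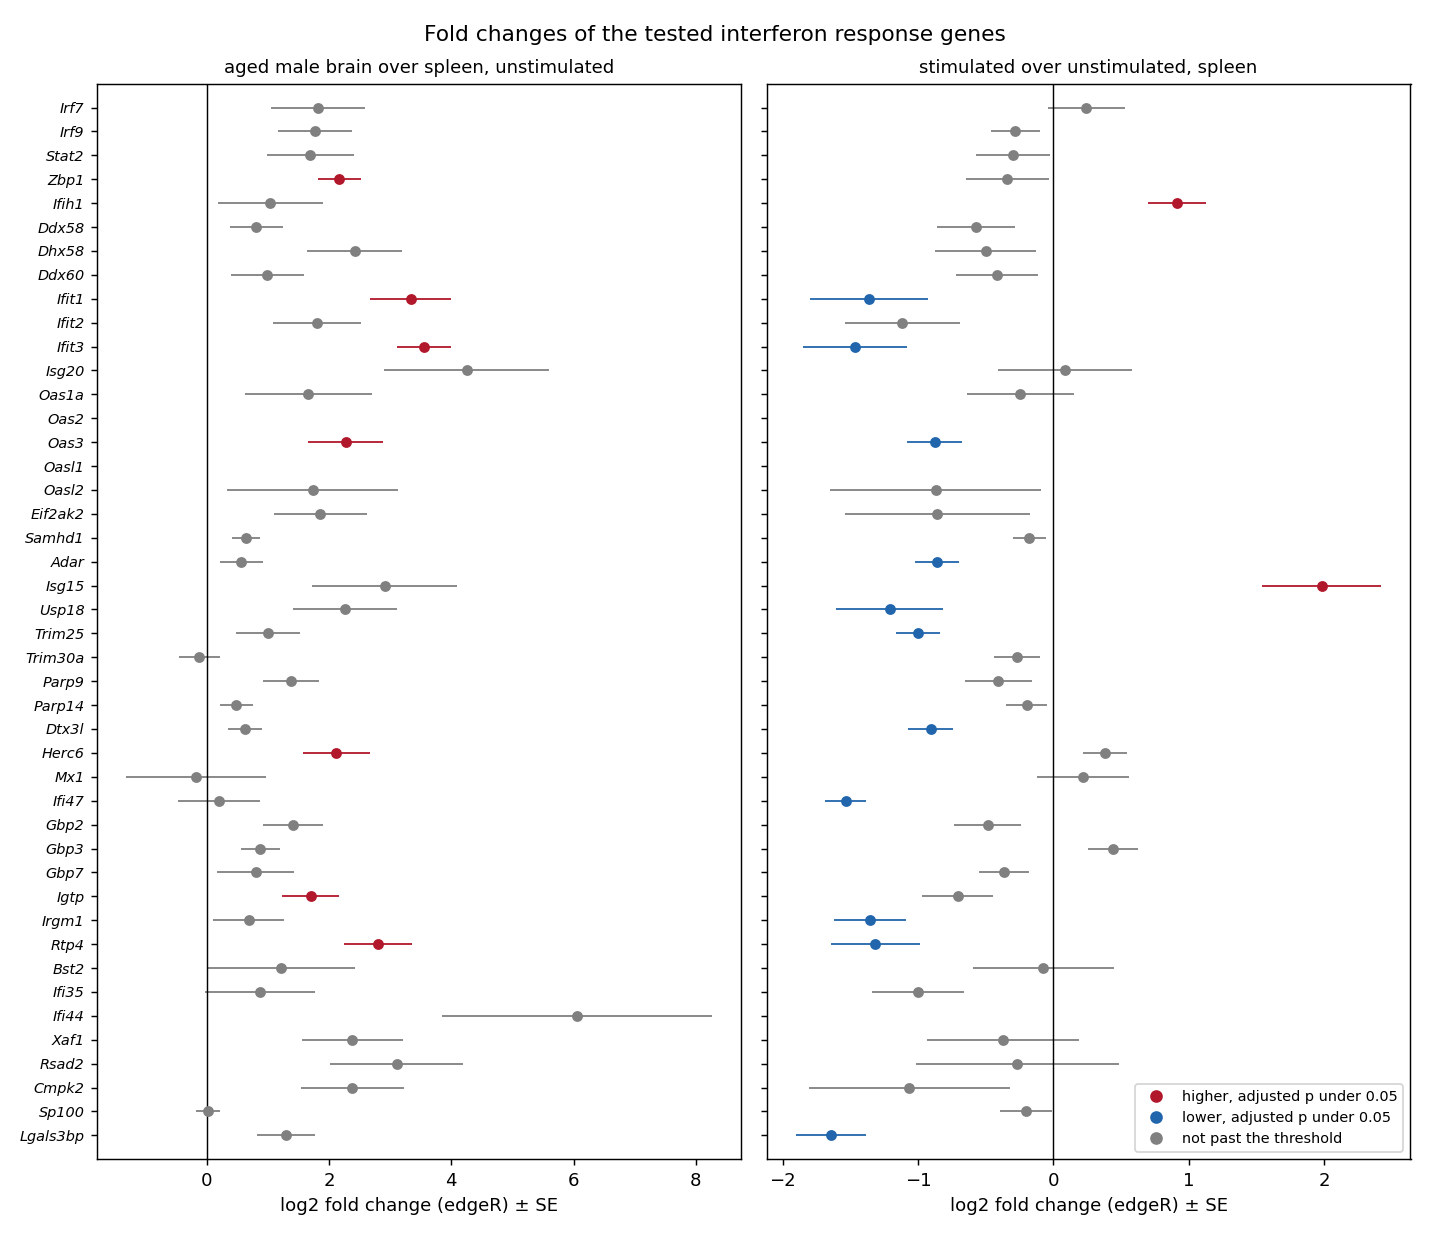
Points are log2 fold changes of the members with their SE, for aged male brain over spleen without stimulation (left) and for stimulated over unstimulated spleen (right); red marks genes called higher, blue genes called lower and grey the rest. On the left 40 of 42 points lie above 0 and on the right 34 of 41 lie below 0.

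For the effect of age, aged male brain cells were set against young ones. No member was called: 0 of 41 tested were higher or lower, with 1 at an unadjusted p under 0.05 in edgeR's test, and DESeq2 and limma voom also called 0. The background is 0.0% of 8068 genes in either direction with edgeR. DESeq2's test called 44 genes higher and 28 lower, and limma voom 0. Nothing can therefore be read from the members' 0. Fitted differences were above 0 for 30 of the 41, with a median of 0.35, against -0.08 over all genes tested. Ifit3 had 142, 301 and 924 CPM in aged brain, against 13.9, 469, 1.98, 49.2 and 55.0 CPM in young brain, which overlap (1.89 ± 0.97, adjusted p = 0.99). Oasl2, an OAS-like protein, had the largest fitted difference (4.32 ± 2.01, adjusted p = 0.99), with 0, 4.10 and 19.3 CPM in aged brain, against 0.391, 0, 0.258, 1.084 and 0 CPM in young brain. Usp18, the protease that removes ISG15 and restrains interferon signalling, shows how far young libraries spread, with 1.18, 49.8 and 94.5 CPM in aged brain, against 0.938, 403, 2.58, 187 and 47.9 CPM in young brain (-1.44 ± 1.14, adjusted p = 0.99).

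Aged female brain cells were compared with aged male brain cells for the effect of sex, both unstimulated. Again no member was called, 0 of 42, where 0.0% of 8691 genes were higher and 0.15% lower in females. The edgeR test gave 4 members at an unadjusted p under 0.05, and DESeq2 and limma voom called 0 members after adjustment. Of 8691 genes DESeq2 called 13 higher and 10 lower, and limma voom 4 and 40. Of the 42 fitted differences, 33 were below 0, with a median of -0.61, against -0.28 over all genes, and without male replicate 8 the medians were -0.26 and -0.22. Zbp1 had 51.1, 39.7, 32.2, 136 and 29.5 CPM in female brain, against 106, 143 and 295 CPM at the lowest, median and highest of male brain (-1.36 ± 0.55, adjusted p = 1.0). A single female library lay within the male range of Zbp1. Ifit3 had 36.3, 151, 258, 200.3 and 112 CPM in female brain, against 142, 301 and 924 CPM in male brain (-1.26 ± 0.51, adjusted p = 1.0). Trim30a, a ubiquitin ligase of the interferon response, was the exception in direction among the 4, with 189.9, 325, 64.0, 93.1 and 288 CPM in female brain, against 60.01, 96.5 and 142 CPM in male brain (1.19 ± 0.50, adjusted p = 1.0).

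Both other unstimulated brain groups can be set beside the spleen as a description, since they share no test with it here. The median of aged female brain lay above the whole range of unstimulated spleen for 32 of 42 members, that of aged male brain for 40 and that of young male brain for 25. Over all genes tested between brain and spleen, the shares were 22.1% in aged female, 32.4% in aged male and 30% in young male brain. The median lay below the spleen range for 4 members in aged female brain, 0 in aged male brain and 7 in young male brain, against 52.8%, 46.8% and 54.3% of all genes. Every library lay above the spleen range for 6 members in aged female brain, 11 in aged male brain and 0 in young male brain, against 2.8%, 4.48% and 4.9% of all genes. Oas3, for example, had 29.1, 44.4, 38.5, 93.4 and 61.0 CPM in aged female brain and 179.7, 216, 163, 16.2 and 129 CPM in young male brain, against 18.7 to 27.2 CPM in spleen.

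Stimulation with PMA and ionomycin was tested first in spleen, where replicates were most alike. Here 11 of 41 members fell and 2 rose, where 6.12% of 11107 genes fell and 12.6% rose. Of the 41 fitted differences 34 were below 0, and their median was -0.42, against -0.07 over all genes. Groups did not overlap for 8 members that were lower and 2 that were higher, against 6.1% and 10.9% of all genes. By role, 4 of 10 RNA-binding effectors, 3 of 8 in the ISG15 system, 2 of 8 membrane effectors and 2 of 7 GTPases fell. The 2 that rose were Isg15 and the sensor Ifih1, and no transcription factor was called.

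Isg15 encodes the ubiquitin-like protein that the interferon response attaches to other proteins (ENSMUSG00000035692, chr4:156199424-156200818). It had 6.09, 5.26, 6.61, 7.58 and 15.4 CPM in stimulated spleen, against 1.49, 1.19, 3.85, 1.47 and 2.17 CPM in unstimulated spleen. All stimulated libraries were above all unstimulated ones, and the log2 fold change was 1.98 ± 0.44 (adjusted p = 0.0071). Ifih1, which encodes the double-stranded RNA sensor MDA5 (chr2:62595798-62646255), had 24.5, 28.7, 27.6, 21.8 and 44.4 CPM with stimulation, against 14.9, 13.7, 17.1, 16.7 and 14.2 CPM without. It also rose without overlap, by 0.91 ± 0.21 (adjusted p = 0.0094). Ddx58, which encodes the related sensor RIG-I, had 22.7, 39.4, 61.8, 53.2 and 18.1 CPM with stimulation, against 66.2, 53.2, 54.9, 58.1 and 50.03 CPM without. That difference did not pass the test (-0.57 ± 0.29, adjusted p = 0.19).

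The GTPase Ifi47 gave the smallest p of the set (ENSMUSG00000078920, chr11:49076587-49096974). Its level was 14.6, 17.4, 17.2, 20.7 and 18.9 CPM in stimulated spleen, against 47.7, 48.8, 49.1, 47.5 and 58.1 CPM in unstimulated spleen. The groups were tight and far apart, with a log2 fold change of -1.53 ± 0.15 (adjusted p = 1.7e-05). Irgm1, a GTPase of the same family that acts on intracellular membranes, had 11.3, 10.3, 13.6, 17.02 and 5.44 CPM with stimulation, against 36.04, 25.2, 27.4, 31.9 and 22.9 CPM without (-1.35 ± 0.27, adjusted p = 0.0034). Gbp3, a guanylate-binding protein gene, had 134, 105, 107, 74.6 and 163 CPM with stimulation, against 80.2, 89.9, 89.4, 76.1 and 86.4 CPM without, an overlap and no call (0.44 ± 0.18, adjusted p = 0.12). Gbp2 was not called either (-0.48 ± 0.25, adjusted p = 0.20).

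Among the other members that fell, Lgals3bp, a secreted glycoprotein, had 6.26, 5.46, 13.5, 6.12 and 8.71 CPM in stimulated spleen, against 25.5, 27.3, 24.8, 20.1 and 24.6 CPM in unstimulated spleen (-1.64 ± 0.26, adjusted p = 0.00083). Trim25, the ubiquitin ligase that aids RIG-I, had 14.6, 17.7, 20.2, 17.3 and 21.8 CPM, against 36.1, 33.04, 34.5, 39.5 and 35.7 CPM (-0.998 ± 0.16, adjusted p = 0.00094). Dtx3l, a ubiquitin ligase that partners PARP9, had 84.7, 49.6, 79.7, 71.1 and 48.8 CPM, against 114, 112, 121, 125 and 139 CPM (-0.91 ± 0.17, adjusted p = 0.0021). None of these 3 genes had overlapping groups. Adar, which edits adenosines in double-stranded RNA, had 27.2, 46.0, 32.6, 31.6 and 29.3 CPM with stimulation, against 54.5, 66.2, 54.5, 56.2 and 64.8 CPM without (-0.86 ± 0.16, adjusted p = 0.0025). Oas3 was at 12.02, 12.9, 15.8, 15.95 and 9.004 CPM, against 18.7 to 27.2 CPM without stimulation (-0.88 ± 0.20, adjusted p = 0.0085).

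The genes that were higher in brain than in spleen split after stimulation of spleen cells; these 2 comparisons share the unstimulated spleen libraries, so the values are set side by side only. Oas3, Rtp4, Ifit3 and Ifit1 fell, while Herc6, Zbp1 and Igtp were not called. Rtp4 had 3.22, 3.37, 7.03, 4.39 and 3.17 CPM with stimulation, against 5.62 to 12.7 CPM without (-1.31 ± 0.33, adjusted p = 0.014). Ifit3 had 10.1, 8.34, 16.2, 2.53 and 18.3 CPM, against 24.4 to 35.9 CPM (-1.46 ± 0.39, adjusted p = 0.018). Ifit1 had 2.03, 6.95, 9.45, 1.99 and 5.84 CPM, against 8.72 to 20.5 CPM, with 1 stimulated library inside the unstimulated range (-1.36 ± 0.43, adjusted p = 0.046). Zbp1 had 22.3, 40.5, 30.5, 28.3 and 8.51 CPM, against 25.9 to 38.5 CPM (-0.34 ± 0.31, adjusted p = 0.49), and Herc6 had 53.1, 47.3, 34.7, 39.1 and 33.9 CPM, against 28.4 to 35.3 CPM (0.38 ± 0.16, adjusted p = 0.13). Usp18 had 3.98, 1.98, 6.19, 3.86 and 2.18 CPM with stimulation, against 6.04, 13.3, 10.1, 5.39 and 6.28 CPM without, and fell with a p close to the threshold (-1.21 ± 0.39, adjusted p = 0.049).

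**Figure D5:**
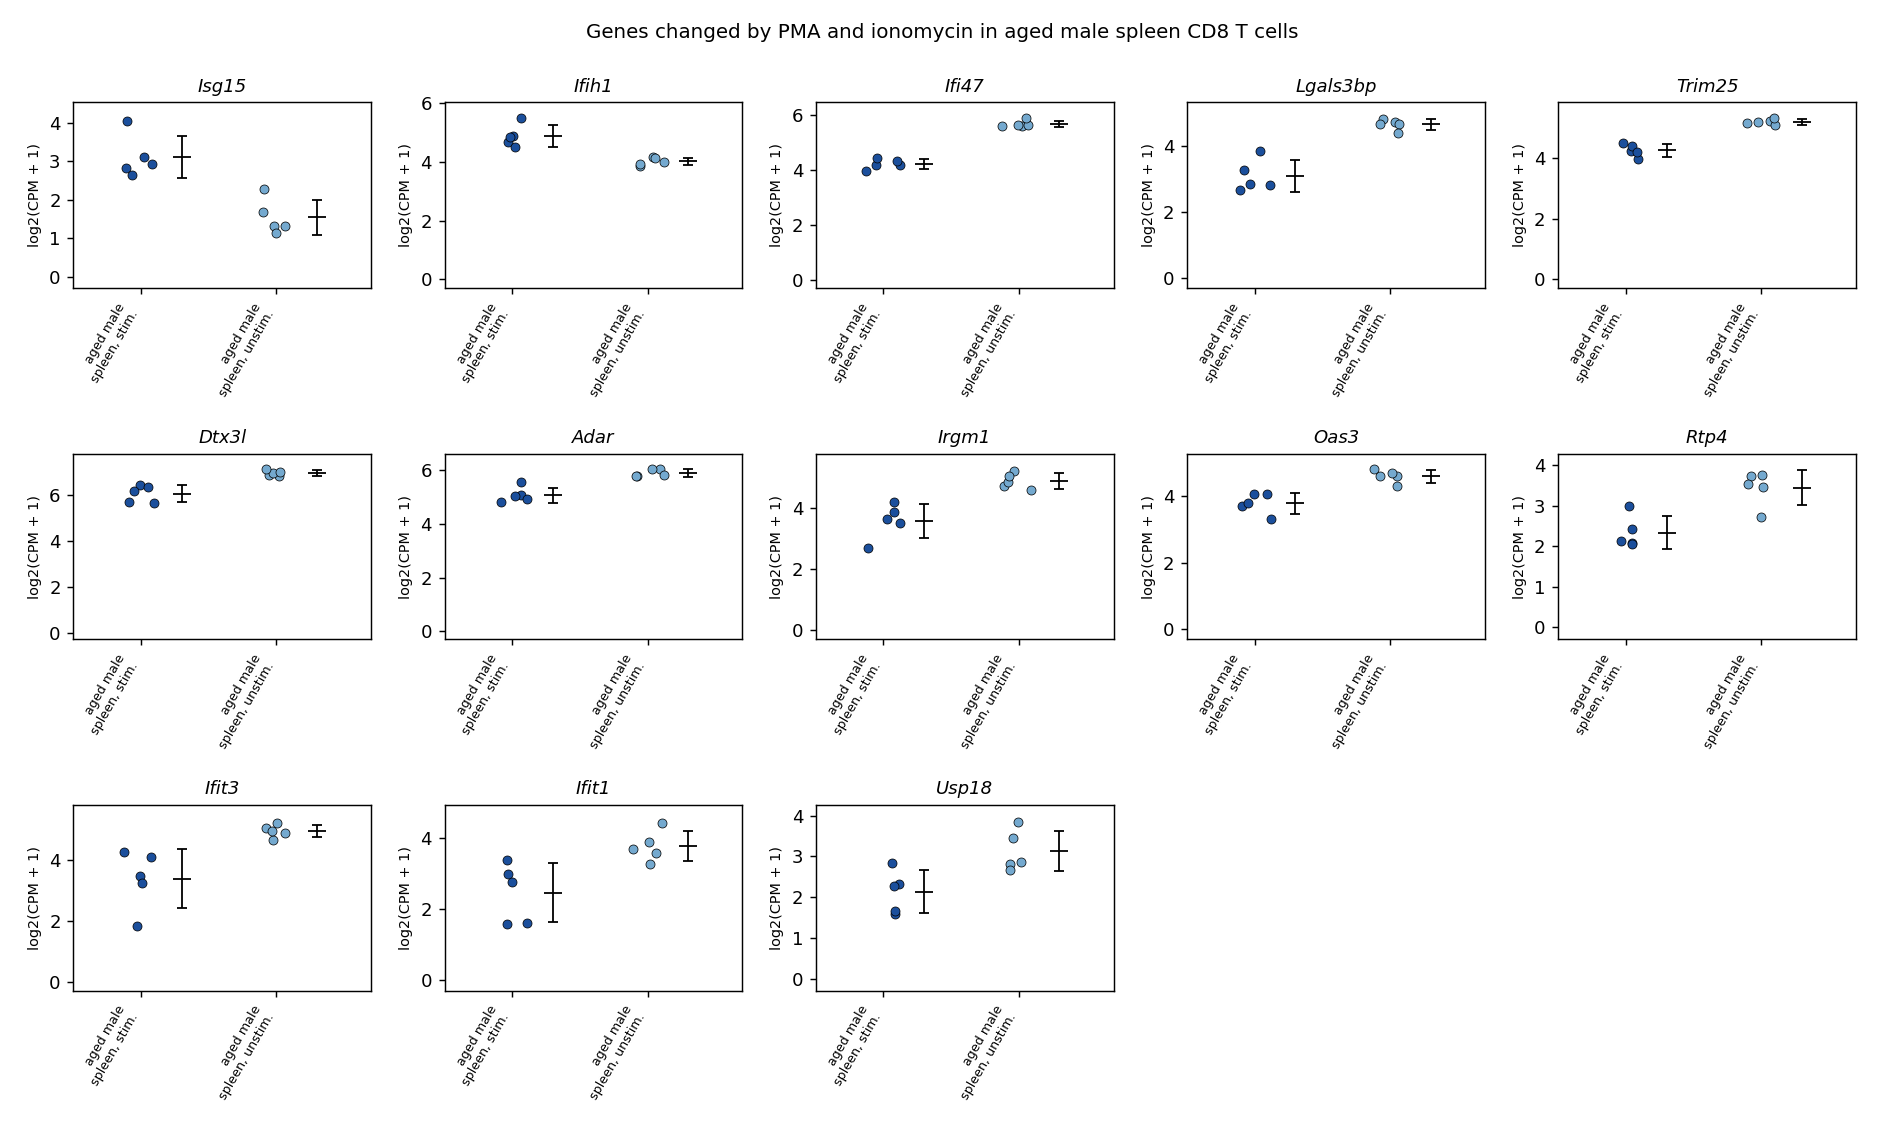
Points are stimulated (left of each pair) and unstimulated (right) spleen libraries for the 13 members called in spleen, on a log2(CPM + 1) axis with mean ± SD. Isg15 and Ifih1 are higher with stimulation, and in Ifi47 the stimulated points lie at 14.6 to 20.7 CPM, below the unstimulated ones at 47.5 to 58.1 CPM.

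In spleen, edgeR fitted to all 35 libraries called 0 members, with 0 at an unadjusted p under 0.05, while DESeq2 called 16 and limma voom 15. The fit of all 35 libraries called 53 of 12956 genes higher and 0 lower, so nothing can be read from the members' 0. Of 11107 genes DESeq2 called 1688 higher and 983 lower, and limma voom 1418 and 804. Usp18 and Ifit1 each lost the call in 8 of 10 fits with 1 library left out, and Ifit3 lost it without stimulated replicate 37. Microglia and macrophage markers summed to 50.9 to 83.1 CPM in stimulated spleen and 99.5 to 144 CPM in unstimulated spleen, and B cell markers to 161 to 352 CPM in stimulated and 128 to 414 CPM in unstimulated spleen. Of the 5 B cell markers 3 were called higher with stimulation, with a median log2 fold change of 2.13. Natural killer cell markers summed to 249 to 320 CPM in stimulated and 133 to 193 CPM in unstimulated spleen. Of the 2 tested 1 was called higher, but their median log2 fold change was -0.34, so the other was lower. Mitochondrial genes took 14.8% to 20.8% of the counts in stimulated and 10.8% to 13.3% in unstimulated spleen. The part of these cells and of the mitochondrial share in the result was not tested.

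In aged female brain, stimulated and unstimulated cells differed in 1 of 37 members tested: Ddx60 fell and 0 rose, where 4.17% of 6305 genes fell and 1.92% rose. Ddx60, an RNA helicase of the antiviral response (chr8:61928087-62038244), had 0.283, 0, 0, 0.359 and 0 CPM in stimulated libraries, against 36.7, 152, 11.2, 34.5 and 141 CPM in unstimulated ones (-8.85 ± 1.86, adjusted p = 0.021). The median of the 37 fitted differences was -1.75, against -0.41 over all genes, and 5 members had an unadjusted p under 0.05. Groups lay apart, with stimulated lower, for 6 members, against 9.91% of all genes. Ddx58 was among these, with 3.11, 7.65, 0, 0.359 and 0 CPM, against 71.9, 159.6, 53.4, 114 and 41.5 CPM, and it did not pass the test (-5.16 ± 1.66, adjusted p = 0.095). Single libraries carried other genes: Eif2ak2, the RNA-activated kinase PKR, had 953 CPM in stimulated replicate 23, 1.57 CPM in replicate 25 and 0 in the other stimulated libraries, against 0 to 78.0 CPM without stimulation (3.07 ± 2.28, adjusted p = 0.60).

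The female count was not stable. DESeq2 called 4 members, limma voom 14 and the fit of all 35 libraries 7. Of 6305 genes DESeq2 called 267 higher and 611 lower, and limma voom 233 and 1127. The fit of all 35 libraries called 485 and 2064 of 12956. Leaving out unstimulated replicate 13, 14, 16 or 17 left 0 members in edgeR's test, with 3 or 4 at an unadjusted p under 0.05. Those fits called 35 to 44 genes higher and 14 to 24 lower, so nothing can be read from the members' 0. Without stimulated replicate 26 there were 6 members called, where 105 of 7360 genes rose and 410 fell. With the hyphenated titles only, the single member called was Herc6 in place of Ddx60, where 49 of 8757 genes rose and 86 fell. Mitochondrial genes took at least 38.5% of the counts in stimulated brain and at most 12.8% in unstimulated brain. CD8 T cell markers summed to 1248 to 2610 CPM in stimulated and 3683 to 6335 CPM in unstimulated female brain, without overlap. Choroid plexus markers summed to 114 to 666 CPM in stimulated and 0 to 5.77 CPM in unstimulated female brain, and oligodendrocyte markers to 158 to 376 CPM and 27.4 to 69.4 CPM. In each of the last 2 lists 1 marker was called higher. The part of the mitochondrial share and of these cells in the result was not tested.

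In aged male brain 19 of 41 members (46.3%) fell with stimulation and 0 rose, where 36.4% of 7540 genes fell and 1.75% rose. The members' share was thus near that of all genes. Of the 41, 12 had 0 counts in all 4 stimulated libraries (29.3%), as had 29.0% of all genes. The median fitted difference was -4.46, against -2.62 over all genes, and without stimulated replicate 19 it was -8.95, against -5.86. With genes at 0 in all stimulated libraries set to their lower bound, the median was -3.92 for the members and -2.12 for all genes. CD8 T cell markers summed to 375 to 1371 CPM in stimulated and 4878 to 9168 CPM in unstimulated aged male brain, so markers of the sorted cell itself moved with this comparison. The part of that difference in the members' result was not tested.

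Zbp1 had 0 counts in the 4 stimulated male brain libraries, against 106, 143 and 295 CPM at the lowest, median and highest of the 6 unstimulated ones. Measured against a floor of 3 counts per library, it was at least 104-fold lower (adjusted p = 0.0055). On the same measure Parp9, an ADP-ribosyltransferase family member, was at least 69.7-fold lower, Ifit2 65.1-fold, Rtp4 50.7-fold and Ifi47 40.8-fold. Irgm1 was at least 32.4-fold lower, Stat2 29.9-fold, Usp18 27.9-fold, the RNA exonuclease gene Isg20 20.3-fold and the nucleotide kinase gene Cmpk2 9.13-fold. Oasl2 and Bst2, which encodes the virion tether tetherin, were at least 4.49-fold and 4.43-fold lower. These bounds cover counting error only.

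Of the 7 called members with some counts in stimulated cells, Parp14, an ADP-ribosyltransferase, had 12.98, 0.480, 0 and 7.02 CPM, against 215, 319.7 and 659.9 CPM at the lowest, median and highest unstimulated library (-6.04 ± 1.58, adjusted p = 0.011). Eif2ak2 had 0, 0.480, 0 and 0 CPM, against 7.996, 40.04 and 201 CPM (-8.84 ± 2.13, adjusted p = 0.0081). Irf7 had 5.34, 0, 0.465 and 0 CPM, against 6.66, 46.0 and 162 CPM (-5.10 ± 1.81, adjusted p = 0.035). Xaf1 (-8.19), Herc6 (-6.40), Isg15 (-6.83) and Lgals3bp (-4.46) also fell on the log2 scale. In each of these genes all stimulated libraries lay below all unstimulated ones. Of the 10 fits with 1 library left out, Lgals3bp lost the call in 9, Irf7 in 6, Oasl2 and Bst2 in 4 each and Isg15 in 3. In those fits Herc6 ranged from -13.99 to -5.94 and Irf7 from -8.11 to -4.45. Gbp3 was above the unstimulated range in 3 of the 4 stimulated libraries. It had 345, 389, 435 and 0 CPM with stimulation, against 99.4, 172 and 252 CPM without (0.82 ± 1.21, adjusted p = 0.65). Rsad2, which encodes viperin, was high in 1 stimulated library, with 887 CPM in replicate 21 and at most 0.480 CPM in the other 3, against 4.47, 9.20 and 53.6 CPM without (3.87 ± 1.91, adjusted p = 0.13).

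The response to stimulation was compared between the tissues with an interaction contrast over the 4 aged male groups, brain response minus spleen response. It was lower for 22 of 42 members and higher for 0, where 35.7% of 12117 genes were lower and 2.1% higher. The median of the members was -4.21, against -4.04 over all genes. These medians were -3.55 and -2.23 with DESeq2's test, -5.06 and -1.89 with limma voom, and -8.56 and -5.56 without stimulated brain replicate 19. Among members with counts in every group, the contrast was -5.95 ± 1.16 for Parp14 (adjusted p = 0.00043), -8.76 ± 1.82 for Isg15 (adjusted p = 0.00077) and -6.74 ± 1.44 for Herc6 (adjusted p = 0.0010). Isg15 thus rose in spleen, fell in male brain, and differed between the tissues. Ifit3 (0.52 ± 1.70, adjusted p = 0.86) and Gbp3 (0.28 ± 1.15, adjusted p = 0.90) had differences that did not pass the test, with wide errors. The title format and the low detection of stimulated brain libraries cannot be told apart from tissue in this contrast.

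Genes around the members were read from lists chosen by function. Of 20 genes for type I and type III interferons, 12 had 0 counts in all 35 libraries. The remaining 8 held 191 counts in all, over 8 libraries, each of them from spleen, so no interferon of these types was detected in a brain library at this depth. Ifng, the gene of interferon gamma, averaged 156 ± 121 CPM (SD, n = 6) in aged male brain and 13.6 ± 3.66 CPM (n = 5) in spleen (log2 fold change 3.33 ± 0.68, adjusted p = 0.0051). In stimulated spleen it averaged 2309 ± 699 CPM (n = 5), against the same 13.6 CPM (7.38 ± 0.29, adjusted p = 3.9e-09).

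Of 16 interferon receptor and signalling genes tested between brain and spleen, 3 were higher in brain and 0 lower (3.35% and 4.02% of all genes), among them Ifngr1 and Socs3. Ifngr1, a chain of the interferon gamma receptor, averaged 670.1 ± 111 CPM in brain and 147 ± 27.9 CPM in spleen (2.00 ± 0.20, adjusted p = 2.2e-05). The feedback inhibitor Socs3 was also higher (3.24 ± 0.63, adjusted p = 0.0049). The type I receptor genes did not pass the test, at 1.40 ± 0.55 for Ifnar1 (adjusted p = 0.18) and 0.76 ± 0.57 for Ifnar2 (adjusted p = 0.60). After stimulation of spleen cells 2 of the 16 rose and 2 fell, where 12.6% of all genes rose and 6.12% fell. Socs3 (2.36) and Jak2 (0.66) rose on the log2 scale, and among those that fell was Tyk2, by 1.076. Of 12 genes of nucleic acid sensing and its signalling upstream of interferon, 0 were called between brain and spleen by edgeR, with 1 at an unadjusted p under 0.05. In stimulated spleen 1 rose, Mb21d1, which encodes the DNA sensor cGAS (2.83 ± 0.46, adjusted p = 0.0010).

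A list of 70 other interferon-induced genes, none of them a member, gave 10 higher and 0 lower of 62 tested in brain over spleen (3.35% and 4.02% of all genes), with a median of 1.01, against 0.31 over all genes. The strongest calls were the guanylate-binding protein genes Gbp6 (2.47 ± 0.33) and Gbp4 (1.71 ± 0.32), with Rnf213 (2.21 ± 0.32) and Helz2 (2.03 ± 0.31). Helz2, for example, averaged 264 ± 106 CPM in brain and 56.4 ± 5.28 CPM in spleen. After stimulation of spleen cells, 12 of 64 fell and 4 rose, where 6.12% of all genes fell and 12.6% rose. Ifit1bl1, Slfn8 and Tgtp2 fell by 2.24, 1.55 and 1.67, while Cxcl10 (2.96) and Cd274 (2.80), which encode a chemokine and the ligand PD-L1, rose.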

How the data were processed

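The deposited series table gives counts per gene as whole numbers, and the authors deposited for each library RSEM expected counts and TPM, per the file headers. The counts equal the expected counts rounded to whole numbers (largest difference 0.5). Per the submitters' processing notes, Bowtie2 2.2.0 and RSEM 1.2.12 were used with build mm10. Annotation release and strand setting: not given in the sources used here. RSEM shares reads between similar genes, so values of near-identical copies are uncertain.

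Counts were tested in R 4.3.3 with edgeR 4.0.16: filterByExpr with a minimum count of 10, TMM scaling, and the robust quasi-likelihood test, two-sided, fitted to the groups compared, with Benjamini-Hochberg adjustment over all genes tested and a threshold of 0.05. CPM use TMM over all 35 libraries. TPM, the authors' values scaled within a library, served to compare levels between genes. DESeq2 1.42.0, limma 3.58.1 (voom with quality weights), other filters and scalings, expected counts rounded, and each library left out were alternatives. The main edgeR fit was tested on simulated data for each pairwise comparison of groups. The simulated counts came from a mean level per gene shared by both groups, with 200 genes changed. They did not mimic the many genes at 0 in stimulated brain, and the outcome is not reported here. The DESeq2 and limma voom fits were so tested for brain over spleen and for stimulation in spleen only. The contrast between the tissues and the other alternatives were not tested on simulated data. Every pair of replicates differed by more than counting noise (chi-square over degrees of freedom at least 13.04). Folds against 0 counts are bounds from a floor of 3 counts per library, which cover counting error only. Positions are those of GENCODE M21 (GRCm38, equal to mm10), and promoter windows are RefSeq's on GRCm38.p6. Python 3.11.15 with numpy 2.4.6, pandas 2.3.3 and matplotlib 3.10.9 made tables and figures.

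The members and lists were chosen with earlier results of these data known. Any of the 44 members may be named. Values per library are given for members past the threshold, up to 8 with the smallest adjusted p per comparison and direction, and for the 2 with the highest TPM per role; further members were chosen after their values were seen. From the other lists at most 6 genes past the threshold are named per list. Some genes these rules would name are not reported here.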

Additional observations from a re-analysis of the deposited data

Results flagged for a closer look

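In 43 groups of 4 to 6 values that were examined, 6 held a library that stood apart from its group (13.95%). The cutoff assumes normally distributed values, and the groups share libraries and hold mostly genes already called. No chance rate can therefore be set beside this share. In aged male brain, replicate 8 stood apart at 447 CPM of Ifit1, with 20.1 to 159 CPM in the others, and at 431 CPM of Oas3, with 36.4 to 129.9 CPM in the others. The summed level of the 44 genes was 8541 CPM in the same library, with 3753 to 5446 CPM in the others. It was also the library with 28.7 CPM of Xist. Replicate 12 of aged male brain had 182 CPM of Rtp4, with 38.8 to 80.9 CPM in the others. In stimulated spleen, replicate 40 had 15.4 CPM of Isg15, with 5.26 to 7.58 CPM in the others. In unstimulated spleen, replicate 34 had 58.1 CPM of Ifi47, with 47.5 to 49.1 CPM in the others. Without replicate 8 the count of members higher in brain than in spleen was 8, where 489 of 11048 genes were higher. Every one of the 7 members kept its call there.

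Responses to stimulation differed between aged male brain and aged male spleen for 22 members in the interaction contrast of edgeR's quasi-likelihood test, all lower in brain, where 35.7% of all genes were lower.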

How the results depend on the processing

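No called member changed sign under any alternative run. The median log2 fold change over all genes did: for brain over spleen it was 0.31, but -1.02 with limma voom and -0.30 without a low-count filter; for age -0.08, but 0.15 and 0.05 under these and 0.01 without young replicate 3; for sex -0.28, but 0.03 with limma voom. The members' medians kept their sign. In brain over spleen, 7 members were called with edgeR, 18 with DESeq2's test, 9 with limma voom and 0 in the fit of all 35 libraries. Over all genes these fits called 370, 610, 425 and 77 higher and 444, 554, 1190 and 564 lower. Leaving out 1 library gave 4 to 10 members, against 251 to 489 genes higher and 426 to 557 lower. The largest edgeR adjusted p of a called member was then 0.069 for Herc6, 0.092 for Oas3 and 0.0999 for Igtp. In spleen, 13 members were called, 0 in the fit of all 35 libraries and 12 without a low-count filter. Over all genes these fits called 1400, 53 and 1158 higher and 680, 0 and 572 lower. With 1 library left out 11 to 14 members were called, against 1100 to 1562 genes higher and 454 to 778 lower. The largest edgeR adjusted p was then 0.14 for Usp18, 0.12 for Ifit1 and 0.053 for Ifit3. In stimulated female brain 1 member was called, 4 with DESeq2's test, 14 with limma voom, 2 with no low-count filter and 7 in the fit of all 35 libraries. Over all genes these fits called 121, 267, 233, 322 and 485 higher and 263, 611, 1127, 382 and 2064 lower. With 1 library left out 0 to 6 members were called, against 35 to 114 genes higher and 14 to 486 lower. In stimulated male brain 19 members were called and 33 with limma voom, where 2743 and 3070 of 7540 genes were lower and 132 and 170 higher. With 1 library left out 14 to 23 members were called, against 2000 to 2731 genes lower and 105 to 153 higher. The contrast between the tissues called 22 members, and 16 in the fit of all 35 libraries. These fits called 4323 of 12117 and 3016 of 12956 genes lower, and 254 and 211 higher. With 1 library left out 20 to 29 members were called, against 3829 to 4606 genes lower and 202 to 295 higher. The cause of these changes was not tested. DESeq2 size factors moved the median log2 fold change over all genes to -0.16 for sex, with the members at -0.49, to -2.46 for stimulated male brain, with the members at -4.49, and to -3.33 for the contrast between the tissues, with the members at -3.55. No paired analysis was possible because the groups compared share no replicate number. Few libraries, shallow stimulated brain libraries and wide spread limit what a missed call can show.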
